A study of Mus musculus with 10 samples.

Results

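The genes described here encode the kinases and adaptors that act first when the T cell antigen receptor is engaged, in thymic invariant natural killer T (iNKT) cells with and without Id3. There were 8 genes, Clnk, Lcp2, Lat, Sh2d2a, Txk, Zap70, Lck and Fyn, and every probe set that the platform annotation assigned to one of them was taken. The annotation gave 11 probe sets to 7 of the genes, of 45037 on the array, and no probe set of Lck was analysed here. All 11 lay above the level used to keep a probe set, 5.78 on the log2 scale (the median of the whole table), on at least 2 arrays, as did 25061 probe sets in all. The genes were chosen by their log2 intensities in the 4 groups, which were already known, so their differences are given as descriptions, and an adjusted p printed beside one only places it in the fit over all probe sets.

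RNA came from cells sorted from the thymi of 6-week-old C57BL/6 mice, either Id3KO mice, which lack the E protein inhibitor Id3, or wild-type (WT) mice. All cells bound the lipid-loaded CD1d tetramer and lacked CD24 and NK1.1, and CD44 divided them into stage 2 (CD44+) and stage 1 (CD44-). There were 3 arrays of Id3KO stage 2 cells, 3 of WT stage 2 cells, 2 of Id3KO stage 1 cells and 2 of WT stage 1 cells, labelled as biological replicates. How the Id3 allele was made and how many mice went into an array are not given in the sources used here.

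In T cells, Lck and Fyn, kinases of the Src family, phosphorylate the receptor chains, and the kinase Zap70 docks there and phosphorylates the adaptors Lat and SLP-76 (encoded by Lcp2). Tec family kinases such as Txk then act on enzymes gathered by these adaptors, and Sh2d2a encodes TSAd, an adaptor that binds Lck. Clnk encodes MIST, a relative of SLP-76 known from mast cells and NK cells. In mice, iNKT cells depend on receptor signals from other thymocytes and on Fyn for their development.

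Some facts of the whole series bear on the values below. Id3, on 1 probe set, had intensities of 54.2 to 69.8 on the 5 Id3KO arrays, against 818.2 to 1289 on the 5 WT arrays. The median intensity was 54.8 to 55.5 on every array, and arrays of 1 group correlated at 0.975 to 0.989. Cd44 averaged 8.76 (Id3KO) and 9.58 (WT) on the log2 scale at stage 2, against 7.51 (Id3KO) and 7.50 (WT) at stage 1. Cd24a, which encodes CD24, averaged 5.50 (Id3KO) and 5.59 (WT) at stage 2, against 5.79 (Id3KO) and 6.09 (WT) at stage 1. It was above the keep level on 3 arrays, with a highest value of 6.69. The 6 measured of 7 iNKT and T cell markers were above the keep level in every group. Their summed intensity was 9003 to 10115 on Id3KO stage 2 arrays against 11385 to 12076 on WT stage 2 arrays, and 10026 to 10310 on Id3KO stage 1 arrays against 11678 to 12060 on WT stage 1 arrays. The list shares Cd3d, Cd3e, Cd3g and Cd247 with the receptor list used below, and much of the gap lay in Thy1, a surface glycoprotein of T cells, at 10.15 against 11.54 (mean log2) at stage 2 and 10.36 against 11.38 at stage 1. Of the double-positive thymocyte markers, Rag1, Rag2, Dntt, Cd8b1 and Ptcra were below the keep level on all 10 arrays. Cd8a was above it on all 10, with group means of 6.16 to 6.28, and Arpp21 was above it on 2. In bulk RNA, fewer cells of a kind cannot be told apart from less RNA in each cell.

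Clnk stood apart from the other members. It was above the keep level on the 3 WT stage 2 arrays and on none of the other 7, so that a gene kept in this way had to differ between groups. Its intensity was 40.6, 39.2 and 38.3 on the Id3KO stage 2 arrays, against 80.2, 84.5 and 82.1 on the WT stage 2 arrays. At stage 1 it was 36.1 and 40.5 on the Id3KO arrays, against 35.6 and 36.5 on the WT arrays. The WT stage 2 arrays were thus close together and above the arrays of the other 3 groups, which were all below the keep level. The WT stage 2 level was itself low, at a mean log2 of 6.36, and a stricter filter with a higher keep level removed Clnk. Epcam, a listed marker of thymic epithelium, had group means of 6.32 to 6.37, and the other listed markers of thymic epithelium had group means of 5.67 to 5.93.

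The upstream sequence of Clnk is shown because it is the member whose groups parted, and that of Zap70 because it has the most matches among the members to the short motif that E proteins, the partners of Id3, are known to bind. Each line gives the 250 bases before the start of a transcript, 5′ to 3′ on the gene's own strand, with matches to CANNTG (the E-box) in capitals. The sequences are from RefSeq on GRCm38.p6. That of Clnk lies at chr5:38876694-38876943 on the minus strand, and that of Zap70 at chr1:36761548-36761797 on the plus strand.
Clnk: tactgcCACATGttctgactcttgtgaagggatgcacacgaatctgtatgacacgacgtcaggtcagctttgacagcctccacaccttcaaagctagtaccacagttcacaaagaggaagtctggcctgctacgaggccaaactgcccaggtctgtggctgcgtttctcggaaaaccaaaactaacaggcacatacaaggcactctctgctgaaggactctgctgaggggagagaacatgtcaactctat
Zap70: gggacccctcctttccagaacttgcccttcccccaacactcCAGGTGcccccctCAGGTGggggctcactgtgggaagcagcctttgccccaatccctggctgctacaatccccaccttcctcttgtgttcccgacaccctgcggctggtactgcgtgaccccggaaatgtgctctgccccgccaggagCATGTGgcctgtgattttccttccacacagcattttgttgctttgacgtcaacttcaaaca
The Clnk window held 1 match, CACATG, beginning 244 bases before the start. The Zap70 window held 3, CAGGTG at 209 and at 196 bases and CATGTG at 61 bases before the start, and the windows of 2 further Zap70 starts held 1 each. CANNTG reads as CANNTG on the other strand too, so 1 search covers both. It was found in 66.2% of the 32851 windows of this length in the table, and CAGGTG, on either strand, in 17.2%. The 7 members with a window in the table had 11 windows in all, and those of Txk and Fyn held no CANNTG. A match is a run of letters and was not tested for binding.

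**Figure D1:**
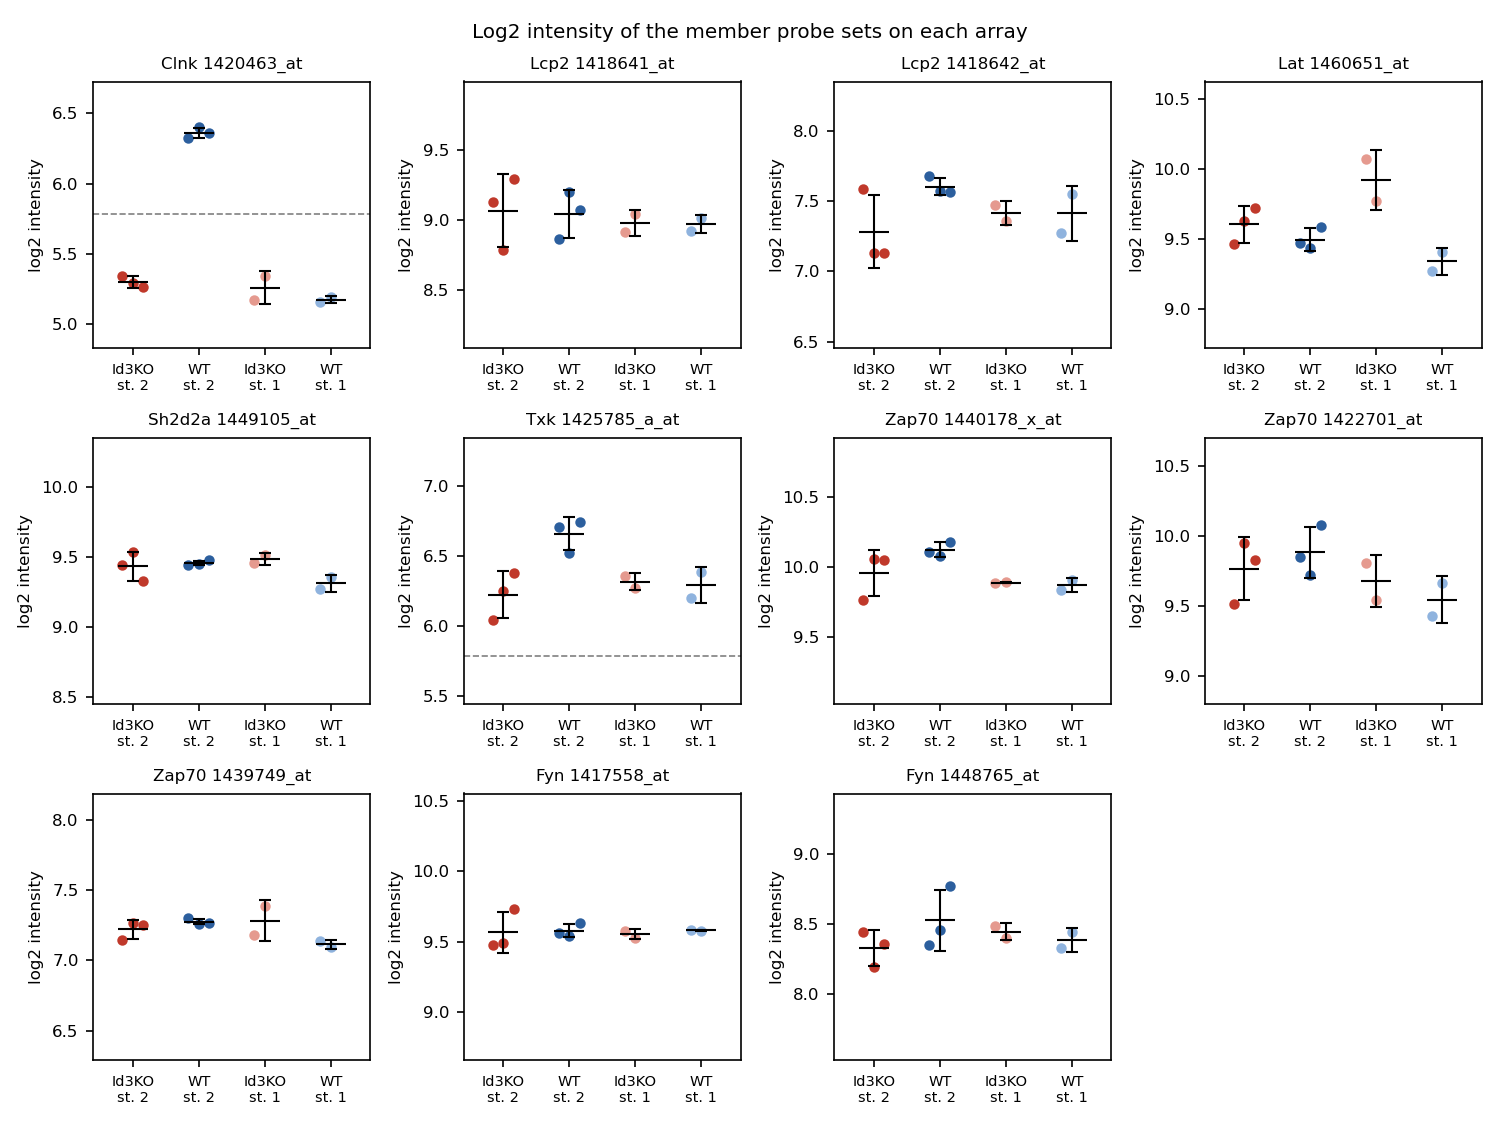
Log2 intensity (vertical axis) of the 11 member probe sets on each array, in the groups Id3KO stage 2, WT stage 2, Id3KO stage 1 and WT stage 1. Points are arrays, horizontal marks with bars are the group mean ± SD, every panel spans the same log2 range, and the dashed line is the keep level of 5.78. Clnk is above that line in WT stage 2 cells and below it in the other groups.

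In stage 2 cells, setting Id3KO against WT asks what differs without Id3 in cells sorted as CD44+. Clnk averaged 5.30 ± 0.04 in Id3KO cells and 6.36 ± 0.04 in WT cells (log2 intensity, SD, n = 3 each). The difference was -1.06 ± 0.07 (log2, SE, 95% interval -1.22 to -0.90, limma adjusted p = 0.000266). Since the Id3KO level lay below the keep level, the difference is measured against background and no fold is given. It was -1.09 to -1.04 in the 17 alternative fits that kept the probe set, with an adjusted p of 0.00011 to 0.0029. The stricter filter dropped the probe set, so that setting gave no value. Clnk was kept only through its WT stage 2 arrays and was chosen with its values known. The alternative fits reuse the same arrays, so their range is a description and no independent test of the difference.

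The listed markers of mast cells, basophils and NK cells were in part below the keep level and in part above it. Of the mast cell and basophil markers, Kit, Fcer1a, Ms4a2 and Mcpt8 were below the keep level on all 10 arrays. Cpa3 was above it on 3 arrays, with a mean log2 at stage 2 of 5.83 in Id3KO cells against 5.47 in WT cells. Tpsb2 was above it on 1 and Hdc on all 10. The summed intensity of the 7 mast cell and basophil markers was 454.3 to 866.6 on Id3KO stage 2 arrays against 319.2 to 377.5 on WT stage 2 arrays, and most of that difference lay in Hdc, histidine decarboxylase (mean log2 8.17 against 6.29). The 3 measured of 5 NK cell markers summed to 145.6 to 201.9 on Id3KO stage 2 arrays and 145.1 to 163.3 on WT stage 2 arrays. Ncr1 was below the keep level on all 10. Eomes was above it on 5 arrays and Klrk1 on 1. At stage 2 Eomes averaged 6.28 in Id3KO cells against 5.67 in WT cells, and Klrk1 5.66 against 5.83. The part of such cells in the Clnk values was not tested.

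Txk, the Tec family kinase also called Rlk, was the next member in size at stage 2. It had log2 intensities of 6.05, 6.25 and 6.38 in Id3KO cells, against 6.71, 6.52 and 6.74 in WT cells, without overlap. The difference was -0.43 ± 0.11 (SE, 95% interval -0.67 to -0.19, limma adjusted p = 0.0596), which did not pass. The call was made in 2 of the 18 alternative fits, with array weights and without Id3KO stage 2 replicate 3, over an adjusted p of 0.0486 to 0.192.

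Lcp2, which encodes SLP-76, had a pair of probe sets that differed from each other. The brighter one stood at 9.13, 8.79 and 9.29 in Id3KO stage 2 cells against 8.86, 9.20 and 9.08 in WT stage 2 cells, a difference of 0.02 (95% interval -0.29 to 0.33). The dimmer one stood at 7.59, 7.13 and 7.13 in Id3KO cells against 7.68, 7.57 and 7.57 in WT cells, a difference of -0.32 (95% interval -0.62 to -0.02, limma adjusted p = 0.265). Neither passed, and the arrays of the genotypes overlapped on both.

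Lat, the membrane adaptor that holds the SLP-76 complex, stood at 9.46, 9.63 and 9.72 in Id3KO stage 2 cells and 9.47, 9.44 and 9.59 in WT stage 2 cells. Sh2d2a, the adaptor TSAd, stood at 9.44, 9.53 and 9.33 in Id3KO cells and 9.45, 9.45 and 9.47 in WT cells. The genotypes overlapped for both genes, with differences of 0.11 (95% interval -0.13 to 0.35) for Lat and -0.02 (95% interval -0.19 to 0.14) for Sh2d2a.

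Zap70 was read by 3 probe sets, which share their target and are not independent. Their differences at stage 2 were -0.17 (95% interval -0.37 to 0.04), -0.12 (-0.44 to 0.21) and -0.06 (-0.23 to 0.12). The brightest, of a class that can bind other transcripts, stood at 9.77, 10.06 and 10.05 in Id3KO cells and 10.11, 10.08 and 10.18 in WT cells. These did not overlap, while those of the other 2 probe sets did.

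Fyn, the Src family kinase, had a pair of probe sets. Its brighter probe set stood at 9.48, 9.49 and 9.73 in Id3KO stage 2 cells and 9.56, 9.54 and 9.63 in WT stage 2 cells, a difference of -0.01 (95% interval -0.20 to 0.18). The dimmer one stood at 8.44, 8.19 and 8.36 in Id3KO cells and 8.35, 8.46 and 8.77 in WT cells, a difference of -0.20 (95% interval -0.46 to 0.07). An interval that spans 0 does not show that the levels were alike.

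In all, 1 of the 11 member probe sets, that of Clnk, was called lower at stage 2 by limma and 0 were called higher, where 4.21% of all probe sets were called, 2.39% lower and 1.82% higher. At an unadjusted p under 0.05 there were 3, of Clnk, Txk and the dimmer Lcp2 probe set. The share of all probe sets or genes at that level was not counted. Such counts, here and below, thus have no background to be read against. Id3KO and WT arrays lay apart for 3 probe sets, those of Clnk, Txk and the brightest of Zap70, all lower, against 21.4% of all probe sets. The median difference of the members was -0.12, against 0.01 for all kept probe sets.

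**Figure D2:**
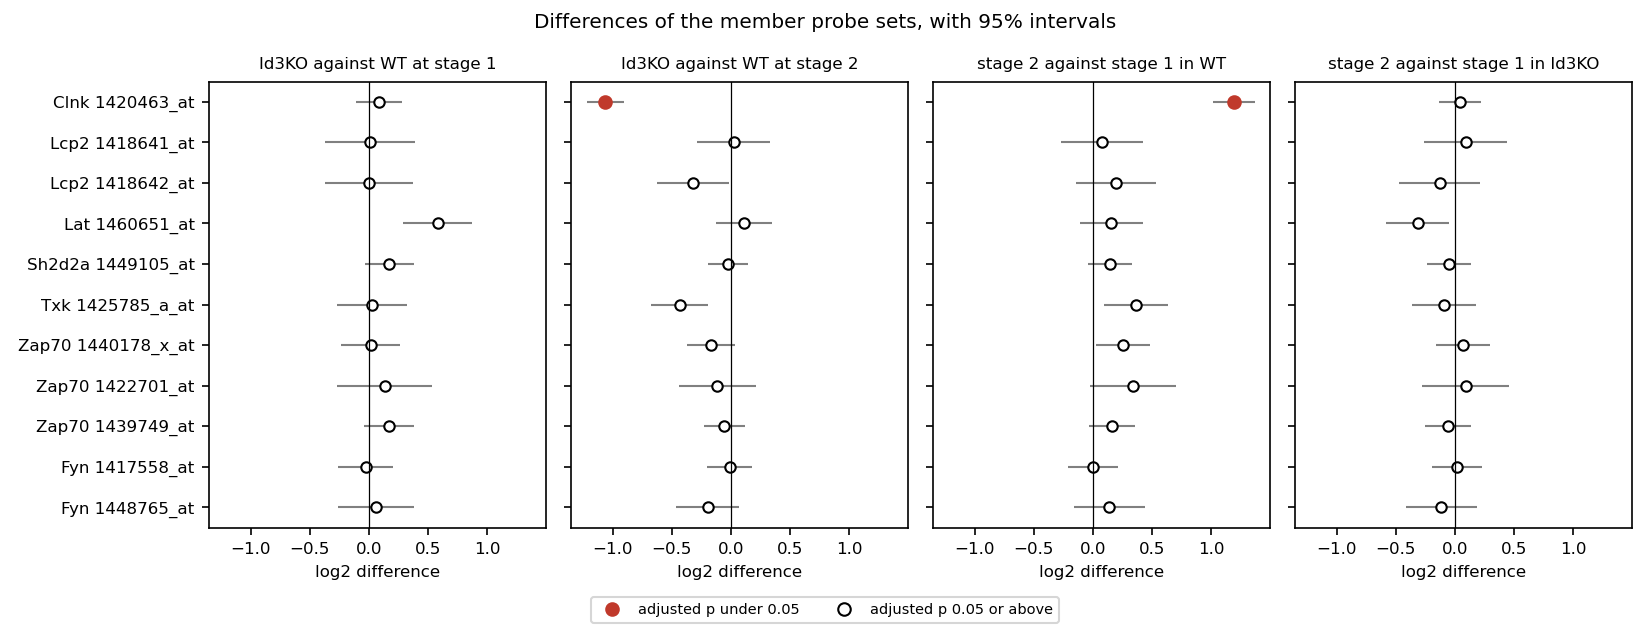
Log2 differences (horizontal axis) of the 11 member probe sets in Id3KO against WT cells at stage 1 and at stage 2, and in stage 2 against stage 1 cells of WT and of Id3KO mice. Bars are unadjusted 95% intervals of the limma fit, and filled points have an adjusted p under 0.05. Clnk is at -1.06 between genotypes at stage 2 and at 1.19 between stages in WT cells.

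At stage 1, where the same question is asked of cells sorted as CD44-, the member with the widest difference was Lat. It stood at 10.07 and 9.77 in Id3KO cells, against 9.27 and 9.41 in WT cells, without overlap. The difference was 0.58 ± 0.13 on the log2 scale (SE, 2 arrays each, 95% interval 0.29 to 0.87, limma adjusted p = 0.0996, and 0.0826 to 0.487 in the alternative fits), which did not pass. Without Id3KO stage 1 replicate 1, the higher of its pair, the difference was 0.43, and without replicate 2 it was 0.73.

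Markers of other cell types also lay apart between the genotypes at stage 1. The 7 mast cell and basophil markers summed to intensities of 619.0 to 676.7 on Id3KO stage 1 arrays against 387.8 to 394.7 on WT stage 1 arrays. Hdc was at a mean log2 of 8.58 against 7.07. Cpa3 averaged 5.70 against 5.44, below the keep level in both. The 3 measured NK cell markers summed to 186.5 to 249.5 on Id3KO arrays against 142.3 to 144.5 on WT arrays. Of these only Eomes, a T-box factor, was higher in Id3KO cells, at 6.99 against 5.66. Ncr1, at 5.40 against 5.47, and Klrk1, at 5.47 against 5.59, averaged lower in Id3KO cells and below the keep level. Of 5 gamma delta T cell markers 1 was measured, Sox13, at 141.0 to 158.6 on Id3KO arrays against 201.5 to 212.6 on WT arrays. Their part in the stage 1 differences given here was not tested.

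Clnk was below the keep level in both genotypes at stage 1. The other 5 genes measured lay between -0.03 and 0.17 at stage 1. Sh2d2a stood at 9.46 and 9.52 in Id3KO cells against 9.27 and 9.36 in WT cells (difference 0.17, 95% interval -0.03 to 0.38). The dimmest Zap70 probe set stood at 7.18 and 7.39 against 7.14 and 7.09 (difference 0.17, 95% interval -0.05 to 0.38). Both were without overlap and neither passed.

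The remaining probe sets overlapped between the genotypes at stage 1. The brighter Lcp2 probe set stood at 8.91 and 9.05 in Id3KO cells against 8.93 and 9.02 in WT cells, and the dimmer one at 7.48 and 7.36 against 7.27 and 7.55. Txk stood at 6.36 and 6.27 in Id3KO cells against 6.20 and 6.39 in WT cells (difference 0.02). The brighter Fyn probe set stood at 9.58 and 9.53 in Id3KO cells against 9.58 and 9.58 in WT cells (difference -0.03, 95% interval -0.26 to 0.21). The brighter pair of Zap70 probe sets stood at differences of 0.02 and 0.13.

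Of the 11 probe sets, limma called 0 at stage 1, where 0.802% of all probe sets were called, 0.459% higher and 0.343% lower, and 1, that of Lat, had an unadjusted p under 0.05. Id3KO and WT arrays lay apart for 3 of the 11, all higher in Id3KO cells, against 41.5% of all probe sets. The median difference of the members was 0.06, against -0.01 for all kept probe sets.

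Between the stages in WT cells, the comparison sets cells sorted as CD44+ against cells sorted as CD44-. Clnk was above the keep level in stage 2 cells and below it in stage 1 cells, a difference of 1.19 ± 0.08 (log2, SE, n = 3 against 2, limma adjusted p = 0.00335). Limma called 4 probe sets of 25061 in this comparison, or 0.0160%. Of these 3, or 0.0120%, were higher at stage 2, Clnk among them, and 1, or 0.00399%, was lower. Clnk was kept only through its WT stage 2 arrays and was chosen with its values known. Its place among the 4 is thus a description. The call was lost without WT stage 1 replicate 1 (adjusted p = 0.0722) or replicate 2 (0.0505), with only the arrays compared (0.0553) and in 1 further setting, while the difference kept to 1.17 to 1.21 in all 17 fits that kept the probe set.

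The other members stood at -0.00 to 0.36 between the stages in WT cells, and none passed. Txk stood at 6.71, 6.52 and 6.74 at stage 2 against 6.20 and 6.39 at stage 1 (difference 0.36, 95% interval 0.10 to 0.63, limma adjusted p = 0.491). The 3 Zap70 probe sets stood at 0.25, 0.34 and 0.16. On each of them the stage 2 arrays lay above the stage 1 arrays, the second probe set having 9.85, 9.72 and 10.08 at stage 2 against 9.42 and 9.66 at stage 1. Lat was at 0.16 and Sh2d2a at 0.14, with Sh2d2a standing at 9.45, 9.45 and 9.47 in stage 2 cells against 9.27 and 9.36 in stage 1 cells. In all, 8 of the 11 member probe sets were higher at stage 2 without overlap, against 26.2% of all probe sets in either direction. The share of all probe sets that were higher was not counted. The 8 include Clnk, which was kept only through its WT stage 2 arrays, and the 3 Zap70 probe sets, which are not independent. The members were also chosen with these values known, so the count is a description and no result about the genes as a set. Those left out were both of Fyn and the brighter one of Lcp2.

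Between the stages in Id3KO cells, Clnk stood at 5.34, 5.29 and 5.26 at stage 2 against 5.17 and 5.34 at stage 1, a difference of 0.04 (95% interval -0.14 to 0.22), all below the keep level. Lat was at -0.32 (95% interval -0.58 to -0.05, limma adjusted p = 1.00), without overlap between the stages. The other members lay between -0.13, for the dimmer Lcp2 probe set, and 0.09. Lat had the only probe set of the 11 without overlap, against 18.4% of all probe sets. Limma called 0 of the 11 members and 0 of all 25061 probe sets here, and 1 of the 11, that of Lat, had an unadjusted p under 0.05.

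The genotype difference at stage 2 minus that at stage 1 was -1.15 ± 0.11 for Clnk (log2, SE, 95% interval -1.40 to -0.90, limma adjusted p = 0.0644). It did not pass, except without a filter (0.0319), with an intensity trend and robust prior (0.0282) or with array weights (0.0355), and its adjusted p reached 0.464 without WT stage 1 replicate 1. For Lat it was -0.47 (95% interval -0.85 to -0.10, limma adjusted p = 0.675) and for Txk -0.46 (95% interval -0.84 to -0.08, limma adjusted p = 0.681). Limma called 0 of the 11 members and 0 of all probe sets, with 3 members, those 3, at an unadjusted p under 0.05.

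The order of the group means can be read only within a gene. For Clnk it was WT stage 2, Id3KO stage 2, Id3KO stage 1 and WT stage 1, at 6.36, 5.30, 5.26 and 5.17, and the last 3 are below the keep level and have no order. For Lat it was Id3KO stage 1, Id3KO stage 2, WT stage 2 and WT stage 1, at 9.92 ± 0.21, 9.60 ± 0.13, 9.50 ± 0.08 and 9.34 ± 0.10 (SD), where Id3KO stage 2 and WT stage 2 overlapped. For Txk, WT stage 2 came first at 6.66 ± 0.12, and Id3KO stage 1, WT stage 1 and Id3KO stage 2 followed at 6.32, 6.29 and 6.23 with overlapping arrays. The group means of the brighter Fyn probe set spanned 0.03, those of the brighter Lcp2 probe set 0.10 and those of Sh2d2a 0.17.

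Clnk and Lat had the widest ranges of group means, 1.19 and 0.58, by the brightest probe set of each gene, and the genes whose pattern over the 10 arrays was nearest to theirs were sought among 11407. The measure was the root mean square difference between the log2 values of 2 genes after each was centred on its own mean. For Clnk the nearest were Miat, a long non-coding RNA (0.18), Gpr183, a receptor for oxysterols (0.19), Susd2, a membrane protein (0.19), Gzmb, granzyme B (0.195), and Dennd5a, a regulator of membrane traffic (0.20), where Clnk itself varied about its mean by 0.51. All 5 had their highest group mean in WT stage 2 cells, as the choice by likeness to Clnk makes them. Gzmb averaged 5.90 in Id3KO stage 2 cells and 7.01 in WT stage 2 cells, against 5.94 and 6.16 in Id3KO and WT cells at stage 1. For Lat they were Pdk1 (0.097), a kinase that holds back pyruvate dehydrogenase, Rapgef1 (0.11), an exchange factor for the small GTPase Rap1, Per1 (0.11), a circadian regulator, Il21r (0.11), the interleukin 21 receptor, and Fdps (0.11), an enzyme of isoprenoid synthesis, where Lat varied about its mean by 0.22. All 5 had their highest group mean in Id3KO stage 1 cells, which their choice by likeness to Lat again brings about.

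**Figure D3:**
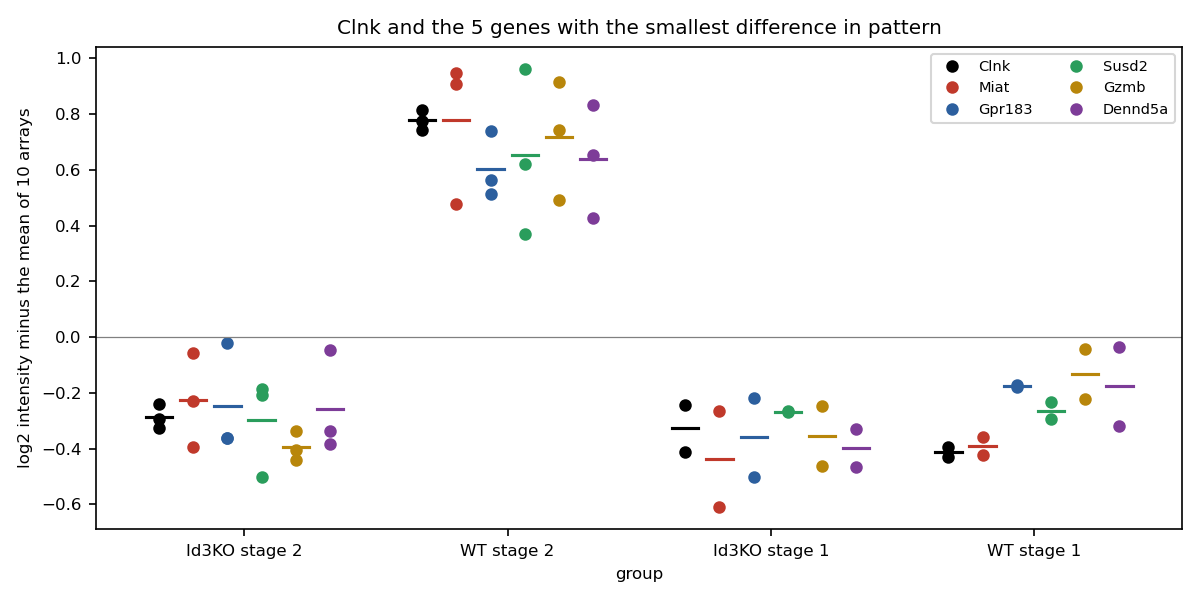
Log2 intensity minus the mean of the 10 arrays (vertical axis) for Clnk and the 5 genes nearest to it in pattern, in the 4 groups. Points are arrays and short lines group means, and all 6 genes are above 0 on the 3 WT stage 2 arrays and below 0 on the other 7, a pattern for which they were chosen.

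The rest of the pathway was examined in 5 lists of 98 genes, 93 of which had a probe set of their own and 87 a kept one, the brightest being used for each. Limma called 7 of the 87 in Id3KO against WT cells at stage 2, 3 higher and 4 lower, which is 8.05%, against 5.58% of the 11951 genes measured in this way (2.36% higher and 3.22% lower). The median difference over the 87 genes was -0.10, against 0.01 over all genes. At stage 1 it called 2, both higher, or 2.30%, against 1.05% of all genes (0.594% higher and 0.460% lower), with a median of 0.02 against -0.02. The count at stage 2 was 3 to 7 with 1 array left out, 3 without WT stage 2 replicate 3 and 4 without WT stage 2 replicate 2, and 4 with only the arrays compared. That at stage 1 was 0 or 1 without any 1 of the 10 arrays, and 0 without any 1 of WT stage 1 replicate 1, both Id3KO stage 1 arrays, or replicates 1 and 2 of Id3KO stage 2. The summed intensities of the T cell markers and of the mast cell and basophil markers, given above, lay apart between the genotypes at both stages, and their part in these values was not tested.

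Of the 20 genes listed as negative regulators of receptor signalling, 3 fell, 1 rose and 16 did not pass at stage 2, with a median of -0.02. The list is a working one and not a complete class. It holds Ptprc, which encodes CD45, while Csk was counted among the other tyrosine kinases. At that stage 5.58% of all genes were called, 3.22% lower and 2.36% higher. Pag1, an adaptor that brings the inhibitory kinase Csk to the membrane, stood at 9.72, 8.67 and 9.28 in Id3KO cells against 10.22, 10.77 and 10.61 in WT cells. It was 2.48-fold lower (log2 -1.31 ± 0.25, SE, n = 3 each, limma adjusted p = 0.0237). Its 3 dimmer probe sets stood at -0.05, -0.12 and -0.42 and did not pass, and the call was lost without WT stage 2 replicate 2 or 3, without Id3KO stage 2 replicate 3 and in 2 of 8 other settings (adjusted p up to 0.0881).

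Ubash3b, which encodes Sts-1, a phosphatase that acts on Zap70, stood at 7.78, 7.39 and 7.25 in Id3KO stage 2 cells against 8.55, 8.28 and 8.43 in WT stage 2 cells. It was 1.93-fold lower (log2 -0.95 ± 0.14, SE, limma adjusted p = 0.00745), and its other probe sets fell too, by 0.67 and 0.85 on the log2 scale. At stage 1 it stood at -0.72 (limma adjusted p = 0.129). Its relative Ubash3a, which encodes Sts-2, was the member of the list that rose, at 6.96, 6.78 and 7.09 in Id3KO cells against 6.34, 6.34 and 6.32 in WT cells (log2 0.61 ± 0.10, SE, limma adjusted p = 0.0125), and is named although it fell outside the 3 widest differences. A dimmer probe set of Ubash3a stood at 0.16 and did not pass, and the call was lost without WT stage 2 replicate 3 (0.0547).

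Ptpn22, a phosphatase that acts on Lck and Zap70, stood at 7.78, 7.75 and 7.93 in Id3KO stage 2 cells against 8.42, 8.63 and 8.58 in WT stage 2 cells, a 1.65-fold lower level (log2 -0.72 ± 0.10, SE, limma adjusted p = 0.00704). At stage 1 it stood at 0.23, at 8.24 and 7.93 in Id3KO cells against 7.78 and 7.93 in WT cells, and did not pass. The genotype difference at stage 2 minus that at stage 1 was -0.96 (limma adjusted p = 0.456) and did not pass either. Ptpn22 and Ubash3b passed at stage 2 in all 18 alternative fits.

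Of the 20 genes of that list at stage 1, 1 rose, 0 fell and 19 did not pass, where 1.05% of all genes were called. Rasal3, a GTPase activating protein for Ras, stood at 10.03 and 10.02 in Id3KO cells against 9.40 and 9.25 in WT cells, a log2 difference of 0.70 ± 0.12 (SE, limma adjusted p = 0.0474). A second probe set stood at 0.35 and did not pass. The call was lost without any 1 of 8 of the 10 arrays, all but replicates 2 and 3 of WT stage 2, and in 4 of 8 other settings (adjusted p up to 0.226).

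Of the 22 other adaptors, 1 rose, 1 fell and 20 did not pass at stage 2, where 5.58% of all genes were called. Sh3bp2, which encodes 3BP2, an adaptor that binds Zap70 and Lat in T cells, stood at 8.24, 8.40 and 8.38 in Id3KO stage 2 cells against 7.49, 7.46 and 7.49 in WT stage 2 cells, a 1.81-fold higher level (log2 0.86 ± 0.12, SE, limma adjusted p = 0.00677). It rose at stage 1 too, with 8.28 and 8.31 in Id3KO cells against 7.14 and 7.67 in WT cells (log2 0.89 ± 0.15, SE, limma adjusted p = 0.0378). The stage 2 call held in all 18 alternative fits, and that at stage 1 was lost without any 1 of 9 of the 10 arrays, all but WT stage 1 replicate 2, and in 3 of 8 other settings (adjusted p up to 0.232).

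Fyb, the adaptor ADAP that binds SLP-76 and Fyn, was the member of that list that fell at stage 2, at 8.64, 8.43 and 9.15 in Id3KO cells against 9.35, 9.46 and 9.60 in WT cells (log2 -0.73 ± 0.17, SE, limma adjusted p = 0.0474). A second probe set fell by 0.86 on the log2 scale (limma adjusted p = 0.00188). The first call was lost without any 1 of 9 of the 10 arrays, all but Id3KO stage 2 replicate 3, and in 3 of 8 other settings (adjusted p up to 0.159). At stage 1, where 1.05% of all genes were called, Sh3bp2 was the only one of the 22 called.

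Of the 11 receptor subunits and coreceptors, 1 rose and 10 did not pass at stage 2, where 5.58% of all genes were called. At stage 1, where 1.05% of all genes were called, 0 of the 11 were called and 5 had an unadjusted p under 0.05. Cd28, the costimulatory receptor, had intensities of 1882, 1337 and 1599 in Id3KO stage 2 cells against 1070, 1023 and 1072 in WT stage 2 cells (log2 0.59 ± 0.12, SE, limma adjusted p = 0.0350), and a second probe set rose by 0.70. The call of the brighter one was lost without any 1 of 7 arrays (replicates 1 and 2 of WT stage 1, all 3 of WT stage 2, and replicates 1 and 3 of Id3KO stage 2) and in 3 of 8 other settings (adjusted p up to 0.110). Cd247, the zeta chain that Zap70 docks on, stood at -0.42 at stage 2 (limma adjusted p = 0.0540) and -0.65 at stage 1 (0.0578) and did not pass; it, Blk, Plcg1 and Rasgrp1 are named after their values were seen.

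Over all genes, limma called 5.58% at stage 2 and 1.05% at stage 1. Of the 9 other tyrosine kinases, limma called 0 in either genotype comparison, with 2 at an unadjusted p under 0.05 at each stage. Their medians were -0.14 at stage 2 and -0.00 at stage 1. Blk, a Src family kinase, had the widest difference, -0.92 at stage 2 (limma adjusted p = 0.298). Of the 25 signalling enzymes downstream of LAT and SLP-76, limma also called 0 at either stage, with 5 at an unadjusted p under 0.05 at stage 2 and 4 at stage 1. Plcg1, the phospholipase that the Lat complex recruits, stood at -0.10 at stage 2 and 0.14 at stage 1, and Rasgrp1, an activator of Ras, at -0.46 and 0.86 (limma adjusted p = 0.172 and 0.114).

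**Figure D4:**
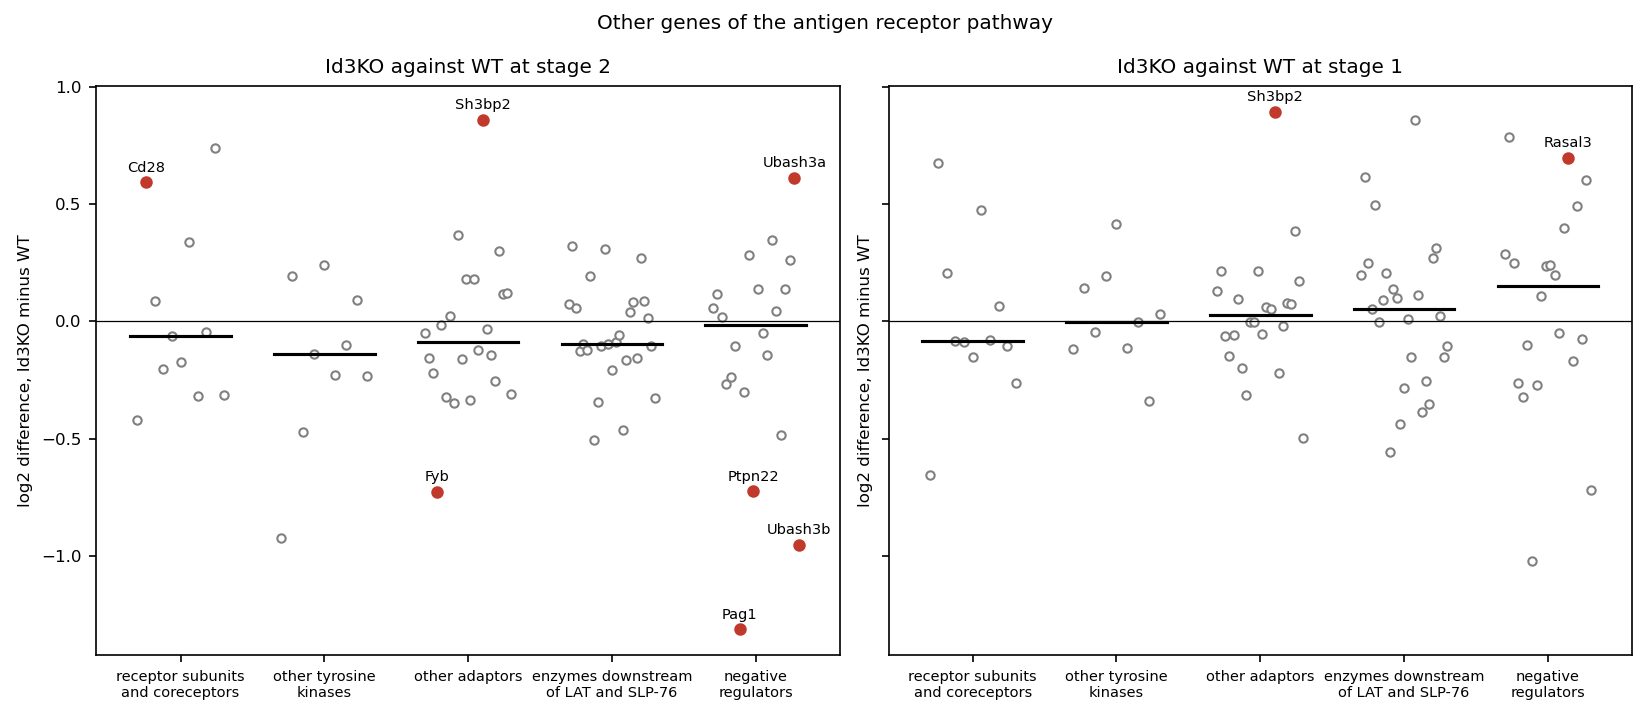
Log2 difference of Id3KO minus WT (vertical axis) for the 87 other pathway genes in 5 lists, at stage 2 (left) and stage 1 (right). Filled, named points have a limma adjusted p under 0.05, and thick lines are list medians. At stage 2, 3 genes lie above and 4 below 0 among those named, and at stage 1 both named genes lie above it.

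**Figure D5:**
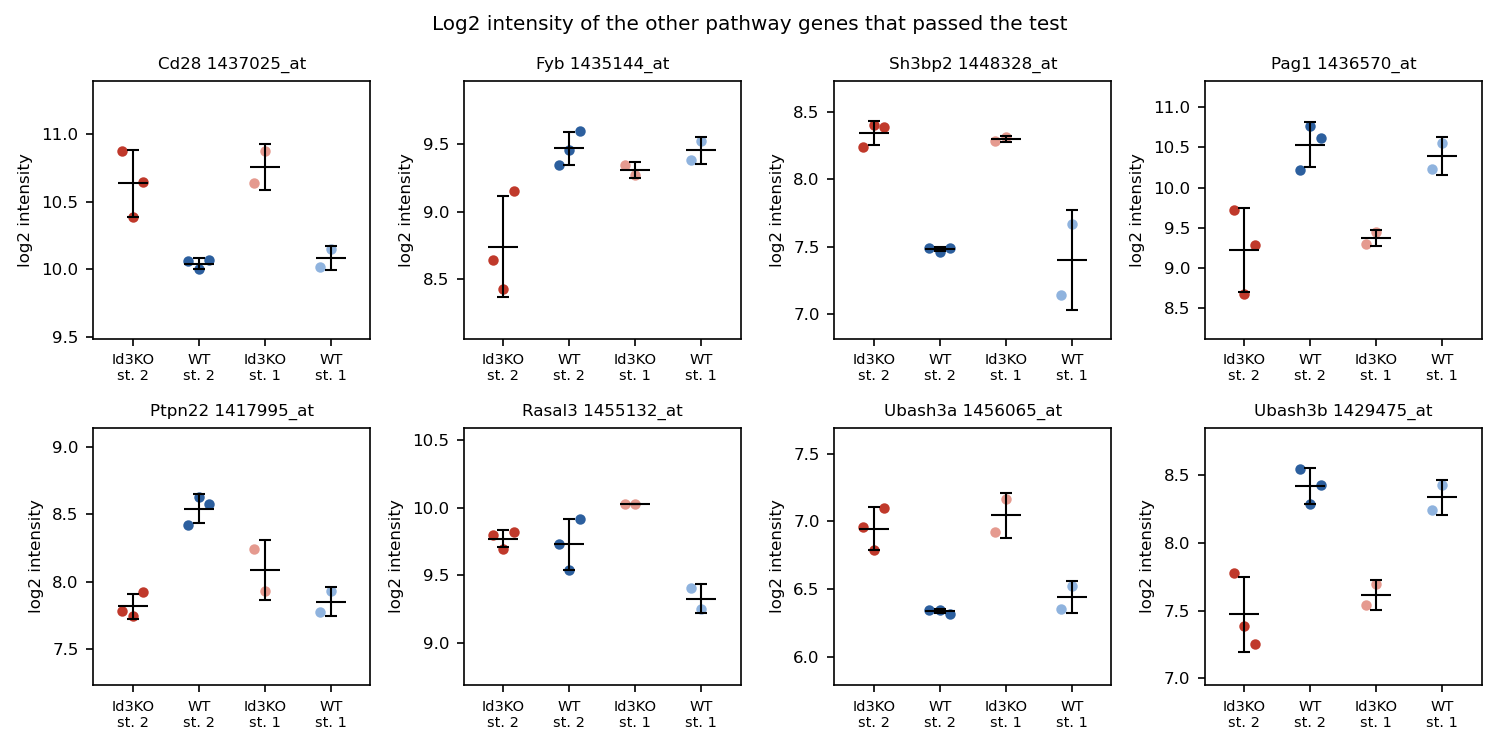
Log2 intensity (vertical axis) on each array of the 8 other pathway genes called in either genotype comparison, in the 4 groups. Points are arrays and marks with bars the group mean ± SD. All panels span the same log2 range except that of Pag1, which spans a wider one. For Sh3bp2, Ubash3a and Cd28 the 5 Id3KO arrays lie above the 5 WT arrays, and for Pag1 and Ubash3b below them.

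Between the stages, limma called 0 of the 87 genes in WT cells, where 0.0335% of all genes were called (0.0251% higher and 0.00837% lower), and 0 in Id3KO cells, where 0 were called. At an unadjusted p under 0.05 there were 9 in WT and 6 in Id3KO cells. The difference of the genotype effects between the stages gave 0 calls among the 87, with 8 at an unadjusted p under 0.05. The medians over the 87 genes were 0.03 in WT cells and -0.06 in Id3KO cells.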

How the data were processed

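The samples were grouped by genotype and stage from their titles. Per the submitters' processing notes RMA made the deposited values, which are probe set intensity values on a linear scale (29 to 15399), of which log2 was taken here. Probe sets were kept when above the median of the table (log2 5.78) on at least 2 arrays. limma 3.58.1 in R 4.3.3 was fitted to all 25061 with 1 mean per group (6 residual and 2.80 prior degrees of freedom), two-sided, and adjusted by Benjamini and Hochberg within each of 5 comparisons. An adjusted p under 0.05 is a call, and the fit was checked on simulated data. The number of arrays, not a count, limits the precision.

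Gene names came from the platform annotation of the array, and a lookup by Entrez identifier changed 0 of them. The members, lists and rules were chosen with earlier results of these data known. The rule for named genes took the members, Id3, up to 3 called genes of widest difference per list and comparison, and the 5 genes nearest in pattern to the 2 members of widest range. Cell type markers are named beside the results they bear on, and Ubash3a, Cd247, Blk, Plcg1 and Rasgrp1, outside the rule, were named after their values were seen. Alternatives were no filter, a stricter one (log2 6.5), quantile normalization, median centring, an intensity trend and robust prior, weights per array, a fit of the compared arrays alone, a replicate block, and each array left out in turn. Promoter positions are those of RefSeq on GRCm38.p6.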

Additional observations from a re-analysis of the deposited data

How the results depend on the processing

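Of the 55 member differences (11 probe sets in 5 comparisons), 2 were called, both of Clnk, and 0 called values changed sign. Of the 53 uncalled, 18 changed sign in at least 1 setting, and 2 were called somewhere (Txk at stage 2, and the genotype effect on Clnk at stage 2 minus that at stage 1). In Id3KO against WT at stage 2, the members called numbered 0 with the stricter filter, which removes Clnk, and 2 with array weights, and 1 to 2 with an array left out. In WT stage 2 against stage 1 they numbered 0 with the stricter filter, the replicate block or only the arrays compared (adjusted p of Clnk 0.0563 with the block), and 0 to 1 with an array left out. The stage 2 minus stage 1 genotype effect gave 1 member without a filter, with the trend and robust prior or with array weights. Of the other pathway genes, 0 were called at stage 1 without a filter, with the replicate block or with only the arrays compared, and 0 to 1 with an array left out. At stage 2, 4 were called with only the arrays compared, and 3 to 7 with an array left out (4 without WT stage 2 replicate 2 and 3 without WT stage 2 replicate 3). Array weights gave 1 between the stages in WT. The cause was not tested.

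No label ties equal replicate numbers to shared mice, litters or days. Deviations of arrays with the same number correlated at -0.31 to 0.13 over 13 pairs, 2 of them above 0.1, so the replicate block is only an alternative. A group left with 1 array is assumed to vary like the others. Clnk was below the keep level in 3 of the 4 groups, so its level there is a background level. In WT stage 2 cells Clnk was above the keep level but below that of the stricter filter.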
